A study of Mus musculus with 4 samples.

Results

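Hepatic stellate cells were followed in mouse liver through 10 marker genes, 3 that mark the quiescent cell (Lrat, Reln and Hand2) and 7 that mark the activated cell or myofibroblast (Des, Pdgfra, Pdgfrb, Acta2, Tagln, Vim and Lox). They were chosen by name, as the probes whose transcript accession belongs to these genes, and make up 10 of the 23462 genes named on the array. They are covered by 16 probes. Liver RNA was measured on 4 one-colour arrays, 1 for each combination of genotype and diet, from 24-week-old male mice on a C57BL/6 background. All mice carried the floxed Lpiat1 allele on both chromosomes. F/F mice (Lpiat1F/F) had no Cre, whereas LKO mice (Alb-Cre; Lpiat1F/F) expressed Cre under the promoter of albumin, a hepatocyte gene that stellate cells do not express. Both genotypes received chow (CE2) or a high fat diet (HFD, HFD-60) for 18 weeks, starting at 6 weeks of age. The sources do not say whether an array held the RNA of 1 mouse or of several. With 1 array per condition, the differences below could not be checked in replicates, and no test was made.

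Stellate cells lie between the hepatocytes and the sinusoidal endothelium and store vitamin A as retinyl esters. After liver injury they lose these stores and become myofibroblasts, which contract, respond to platelet-derived growth factor (PDGF) and lay down and cross-link collagen. Several of the activation markers are also made elsewhere, Acta2, Tagln and Des in vascular smooth muscle and Vim in endothelial cells and macrophages. In RNA from whole liver, fewer cells of a type and less RNA per cell cannot be told apart.

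Levels are given as the processed signal of the scanner software, in arbitrary units and before any scaling between arrays. Differences are in log2 after each array was divided by the 75th percentile of its spots, which lay between 213 and 296. The spread of a difference is the SD between a pair of spots that carry the same probe on the same array. It was 0.38 (log2) for signals under 50, 0.16 for signals from 50 to 500 and 0.074 for brighter spots. This spread leaves out variation between arrays, as from labelling and hybridisation, and any variation between mice. For signals under 50 it rests on 12 probes, and for signals from 50 to 500 on 17. Between 53.0% and 57.0% of the spots were well above background, and none was saturated. Mboat7, which encodes LPIAT1, had signals of 1102 in F/F and 861 in LKO on chow, and of 1181 and 1100 with HFD. Signals below are always given in this sequence, chow before HFD and F/F before LKO. The log2 difference of Mboat7 between LKO and F/F was -0.30 with chow and -0.27 with HFD. Whether its probe lies in the deleted exons was not determined.

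Lrat (lecithin retinol acyltransferase) makes the retinyl esters that stellate cells store, and its signals were 123, 134, 221 and 334. They increased in that sequence of arrays, and each step was larger than the spread of 0.16. Genotype differed by 0.19 on chow and 0.43 on HFD, and diet by 0.60 in F/F and 0.85 in LKO. Lrat was higher, not lower, on the arrays where the activation markers were higher. Between the array with neither Cre nor HFD and the array with both, it differed 2.04-fold. The 250 bases upstream of its start site are shown because Lrat was the quiescent marker that differed most between the arrays. They lie at chr3:82903975-82904224 (GRCm38.p6, minus strand, from RefSeq), and capitals mark an E-box (CANNTG) 199 to 194 bases and a GGGCGG motif on the other strand 45 to 40 bases before the start.
Lrat: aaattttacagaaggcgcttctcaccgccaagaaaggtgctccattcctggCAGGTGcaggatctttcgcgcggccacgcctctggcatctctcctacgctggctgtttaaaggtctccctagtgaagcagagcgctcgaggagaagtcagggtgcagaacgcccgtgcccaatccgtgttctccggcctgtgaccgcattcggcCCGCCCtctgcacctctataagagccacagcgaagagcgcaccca

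Reln encodes reelin, a secreted glycoprotein that stellate cells make in the liver. Its brighter probe had signals of 675, 749, 923 and 1179, and was higher by 0.21 and 0.19 in LKO and by 0.20 and 0.18 on HFD. All 4 of these differences exceeded the spread of 0.074, whereas F/F HFD and LKO chow could not be ordered. The dimmer probe, at 15.6 to 34.5, was higher in the same 4 comparisons by 0.28, 0.39, 0.34 and 0.45.

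Hand2, a transcription factor of mesenchymal cells, was the exception among the quiescent markers. Its signals were 42.9, 43.1, 40.6 and 64.9. After scaling, the level was lowest on F/F HFD, and LKO HFD lay 0.12 above LKO chow (-0.14 after normexp background correction). LKO exceeded F/F by 0.06 on chow and by 0.51 on HFD, the latter larger than the spread of 0.38 but 0.19 after normexp. HFD was accompanied by a difference of -0.33 in F/F and 0.12 in LKO, both within the spread. Hand2 was the one marker of the 10 with a lower value in any of the 4 comparisons.

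Among the activated markers, the PDGF receptors are the receptors through which stellate cells take up growth and migration signals. Pdgfrb had signals of 63.7, 63.3, 149 and 234. Its levels on the chow arrays could not be told apart (0.05), and both HFD arrays lay above them. The difference with diet was 1.98-fold in F/F and 2.66-fold in LKO (log2 0.98 and 1.41), and LKO exceeded F/F by 0.48 on HFD. Pdgfra followed another course, with signals of 77.5, 79.1, 98.4 and 163. F/F chow, LKO chow and F/F HFD differed by no more than 0.10, within the spread of 0.16, and LKO HFD alone stood above them, by 0.56 over F/F HFD and 0.58 over LKO chow. Of its other probes, one was well above background on LKO HFD only, at a signal of 10.9, and one on no array. When all 3 probes were averaged, the genotype difference was -0.10 on HFD and 0.59 on chow.

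Acta2 encodes alpha smooth muscle actin, the contractile actin used to recognise myofibroblasts. Its brightest probe had signals of 947, 919, 1626 and 2143. On chow the genotypes differed by less than the spread of 0.074 (0.01, with -0.03 in the deposited table of values and after normexp background correction), whereas LKO exceeded F/F by 0.23 on HFD. With diet it was higher by 0.53 in F/F and 0.75 in LKO. A second probe gave 220, 241, 481 and 628, with similar genotype differences on either diet (0.19 and 0.22) and larger diet differences (0.88 and 0.91). The third probe was well above background on the HFD arrays only, where genotype differed by 0.00. Acta2 is a classic target of serum response factor, which binds CArG boxes. No CArG box matched exactly in the upstream 250 bases of the 7 markers with a promoter window used here (Lrat, Reln, Hand2, Des, Pdgfra, Acta2 and Vim), and 1.47% of the 32851 windows of the genome held one. A CArG box with 1 inner base changed to G or C, a search added after the sequences had been seen, occurred at 2 places in the Acta2 window and at 1 in that of Lrat. At least 1 such place was found in 7.24% of all windows and at least 2 in 0.548%. Both stretches from Acta2 are shown with this match in capitals, at chr19:34255438-34255467 and chr19:34255388-34255417 (GRCm38.p6, minus strand, from RefSeq). They lie 84 to 75 and 34 to 25 bases before the start site of that window, which is not the outermost annotated start of the gene.
Acta2, farther from the start: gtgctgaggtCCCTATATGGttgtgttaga
Acta2, nearer to the start: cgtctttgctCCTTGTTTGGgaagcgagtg

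Tagln encodes transgelin, an actin-binding protein of contractile cells. It had signals of 886, 1184, 2109 and 2569. Unlike Acta2, it differed more between genotypes on chow (0.48) than on HFD (0.12), and with diet 2.01-fold in F/F and 1.57-fold in LKO. The genotype difference on HFD minus that on chow was -0.36 for Tagln and 0.22 for Acta2 (0.02 by its second probe), and none of these was tested.

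Vim encodes vimentin, an intermediate filament protein of mesenchymal cells. Its signals of 593, 703, 1325 and 2122 were in the same order of arrays as those of Lrat, and every step exceeded the spread of 0.074. LKO exceeded F/F by 0.30 on chow and 0.51 on HFD. With diet, Vim was higher by 0.91 in F/F and by 1.12 (2.18-fold) in LKO. Across genotype and diet together it differed 2.69-fold, against 2.75-fold for Pdgfrb. The upstream bases of Vim are shown beside those of Lrat because the levels took the same order, at chr2:13574061-13574310 (GRCm38.p6, plus strand, from RefSeq). Capitals mark a TATAAA motif 32 to 27 bases before the start.
Vim: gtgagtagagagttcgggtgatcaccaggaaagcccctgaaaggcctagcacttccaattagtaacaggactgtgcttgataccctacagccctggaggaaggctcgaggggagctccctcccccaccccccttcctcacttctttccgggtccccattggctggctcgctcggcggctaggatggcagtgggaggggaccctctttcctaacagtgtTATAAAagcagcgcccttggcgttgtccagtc

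The motifs searched on both strands were few and common. GGGCGG was in 4 of the 7 windows (Lrat, Reln, Hand2 and Des) and in 32.7% of all windows. TATAAA was in that of Vim alone, against 12.4% of all windows. The E-box was in all except Vim, 6 of 7 against 66.2%. GGGCGG was thus in the windows of all 3 quiescent markers and in 1 of the other 4, numbers too small to compare. A match is no evidence of binding, and an absent one says only that these letters are not in the window.

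Des and Lox had signals near the background of the arrays. Des encodes desmin, the muscle intermediate filament that is also found in rodent stellate cells. It had signals of 17.6, 25.1, 27.3 and 45.6 and was higher in LKO by 0.56 on chow and 0.57 on HFD. Its diet differences were 0.38 in F/F and 0.39 in LKO, at the size of the spread for signals under 50. After normexp with an offset of 50, which shrinks differences of dim probes by construction, all 4 were within it, at 0.11 and 0.14 between genotypes and at 0.015 and 0.040 with diet. Lox encodes lysyl oxidase, which cross-links collagen and elastin. Its brighter probe had signals of 2.12, 6.62, 8.96 and 17.9 and was well above background on LKO HFD alone. There it was at least 1.78-fold higher than on F/F HFD and at least 1.60-fold higher than on LKO chow, the dim side being taken as the larger of its own signal and the lowest signal well above background on that array. The other Lox probe was below background throughout.

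**Figure D1:**
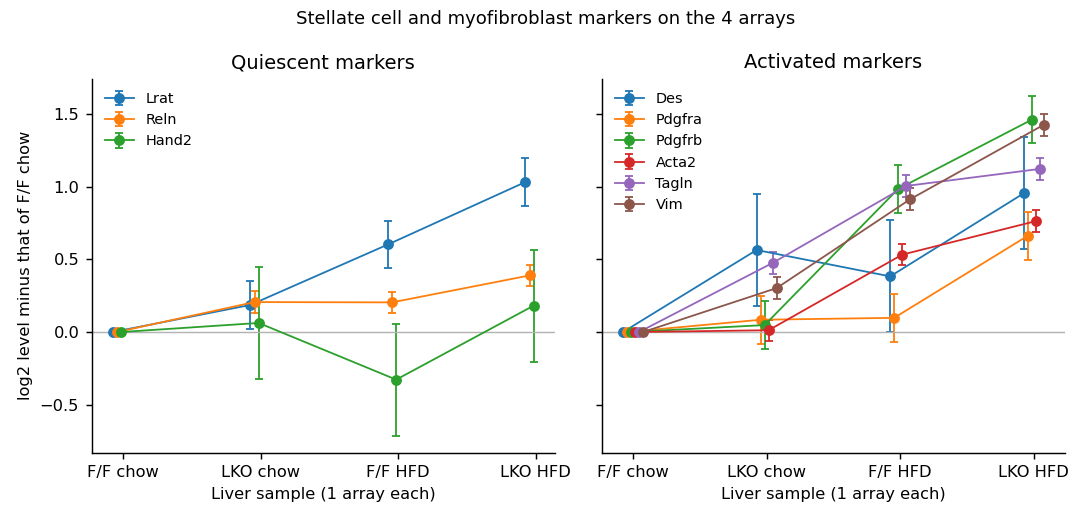
Level of each marker on the 4 arrays (log2, after scaling each array to its 75th percentile, minus the level on F/F chow; 1 array per condition), with the quiescent markers on the left and the activated markers on the right. Bars are the SD of a difference of replicate spots of that brightness on the same array (0.38, 0.16 or 0.074). They do not include variation between arrays or between mice. Every marker drawn is highest on LKO HFD, Hand2 by less than its spread. Lox is left out because it was measured on LKO HFD alone.

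The plot of marker levels shows what the single genes share. Of the 9 markers well above background on all 4 arrays, 9 were highest on LKO HFD, against 25.7% of the 13981 genes measured on every array. For Hand2 the lead over LKO chow was 0.12, within its spread of 0.38, and turned to -0.14 after normexp. All except Hand2, 8 of 9, were higher in each of the 4 comparisons, against 14.5% of genes. A level that increased from F/F to LKO on chow, then to F/F on HFD and then to LKO on HFD was met by 6 of the 9 (Lrat, Pdgfra, Pdgfrb, Acta2, Tagln and Vim) and by 12.1% of genes. For Pdgfra, Pdgfrb and Acta2 some neighbouring arrays in this order lay within the spread of each other. The 9 markers are few and were not drawn at random, so these counts describe them and carry no test.

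Few of the markers reached a 2-fold difference. None of the 9 with a value did so between genotypes on chow, where 2.14% of all genes did, and none of the 10 with a value did on HFD (4.26%). With diet, 1 of 9 did in F/F (Tagln, 8.15% of all genes) and 2 of 10 did in LKO (Pdgfrb and Vim, 12.2%). A difference of at least 1.5-fold upward was found in none of 9 between genotypes on chow (3.52% of all genes) and in 1 of 10 on HFD (Lox, as a bound, against 8.07%). With diet it was found in 4 of 9 in F/F (Lrat, Pdgfrb, Tagln and Vim, against 13.2%) and in 6 of 10 in LKO (those 4, Acta2 and Lox, against 15.4%). The 1.5-fold counts with diet lay above the shares of all genes, and the other counts lay near them. All these counts are small and were not tested. By direction alone, without regard to size, the markers were higher in LKO in 9 of 9 on chow (50.7% of all genes), with Acta2 at -0.03 after normexp or in the deposited table, and in 10 of 10 on HFD (45.9%), with Pdgfra at -0.10 there when all its probes were averaged. They were higher with diet in 8 of 9 in F/F (47.8%) and in 10 of 10 in LKO (43.5%), with Hand2 at -0.14 there after normexp. A difference beyond the technical spread was seen in 5 of the 9 measured markers between genotypes on chow, in 9 between genotypes on HFD, in 6 with diet in F/F and in 8 with diet in LKO. All of these were higher values. The 9 include Hand2 and Des, which fell within the spread after normexp, and Pdgfra, whose sign turned when its probes were averaged. The share of all genes beyond the spread was not counted. Between genotypes, the quartiles of all genes were -0.13 and 0.14 on chow and -0.22 and 0.19 on HFD. With diet they were -0.28 and 0.30 in F/F and -0.35 and 0.30 in LKO. All of these quartiles exceed in size the spread of 0.074 for the brightest spots. The counts beyond the spread therefore do not set the markers apart from other genes.

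**Figure D2:**
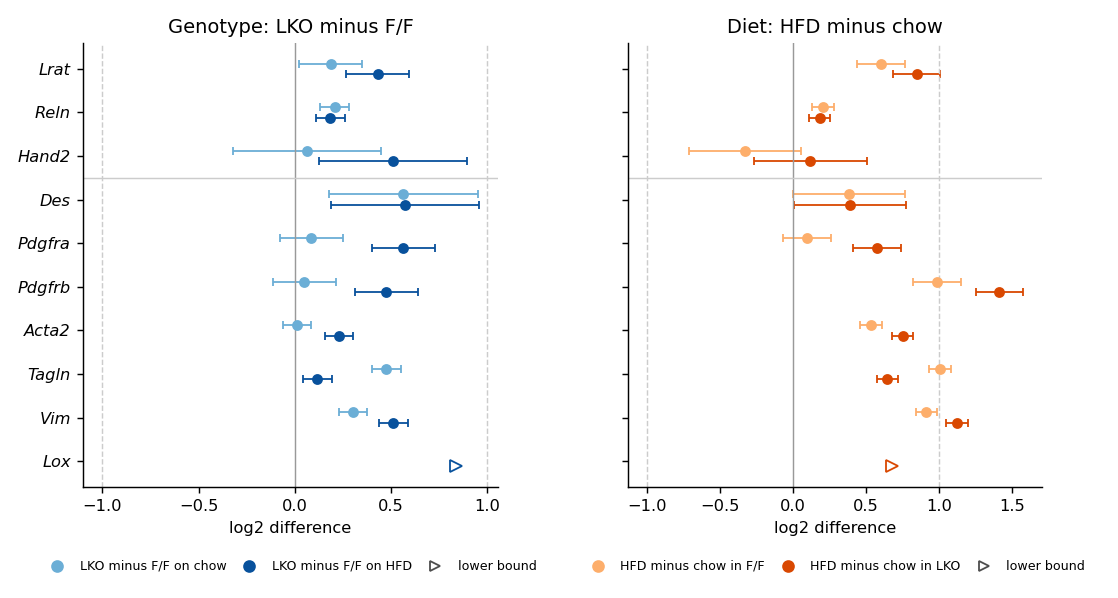
Log2 difference of each marker between genotypes (left, LKO minus F/F) and between diets (right, HFD minus chow), quiescent markers above the grey line and activated markers below it. Points are single differences of 1 array against 1, bars the technical spread of replicate spots, triangles lower bounds for Lox, and dashed lines a 2-fold difference. On HFD every genotype difference lies right of 0, from 0.12 (Tagln) upward.

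Set against each other by their medians, quiescent and activated markers differed with diet and hardly with genotype. Between genotypes on chow, both sets had a median of 0.19. On HFD the medians were 0.43 for the quiescent and 0.51 for the activated markers (0.23 and 0.28 after normexp, and 0.31 for the activated markers when all probes were averaged). This was a gap of 0.08 that changed sign when all probes of a gene were averaged (-0.12) or when Acta2, Tagln, Vim and Lox alone stood for the activated cell (-0.059). With diet in F/F the quiescent median was 0.20 and the activated median 0.72, a gap of 0.52. In LKO they were 0.18 and 0.68, a gap of 0.50. With diet the quiescent median was the value of Reln alone. Lrat was higher by 0.60 in F/F and by 0.85 in LKO, the latter above the activated median. The diet gap thus does not hold for each quiescent marker. The median of all genes was between -0.07 and 0.00 in these comparisons. In the plot of differences, the diet values in LKO run from Hand2 (0.12) and Reln (0.18) to Vim (1.12) and Pdgfrb (1.41), and those in F/F from Hand2 (-0.33) and Pdgfra (0.10) to Pdgfrb (0.98) and Tagln (2.01-fold).

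**Figure D3:**
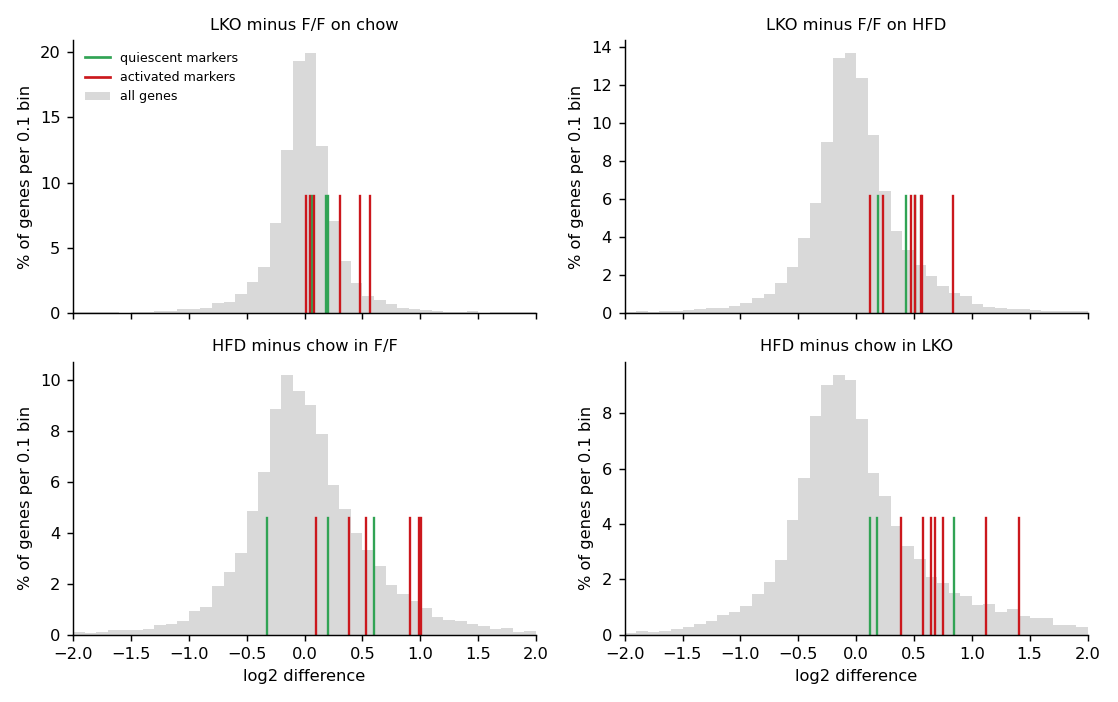
Distribution of log2 differences over all genes with a value in each of the 4 comparisons (grey, % of genes per bin of 0.1), with green lines for the quiescent and red lines for the activated markers. In the HFD genotype panel and the LKO diet panel all markers lie right of 0, and Hand2 is the 1 line left of 0 in the F/F diet panel.

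The distribution over all genes widened from the chow genotype comparison to the diet comparison in LKO, so the same difference ranked differently in each. The 0.43 of Lrat between genotypes on HFD exceeded the values of 87.6% of genes, and its 0.85 with diet in LKO those of 89.7%. Pdgfrb with diet in LKO, the largest difference of any marker, exceeded 95.9% of genes. Des between genotypes on chow exceeded 96.2%, at a signal where the spread was 0.38.

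Lrat and Acta2, one marker of each state, had much the same profile over the 4 arrays. The root mean square distance between the centred log2 profiles was 0.10, and 350 of 13980 genes (2.50%) were closer to Acta2 than Lrat was. Of the markers measured on all arrays, Lrat was the closest to Acta2, so this pair does not stand for the 2 sets. The other quiescent markers lay farther off, Reln at 0.23 (16.3% of genes closer) and Hand2 at 0.39 (46.0%). Among activated markers Tagln lay at 0.19 (10.7%) and Pdgfrb at 0.29 (25.8%). The genes closest to Acta2 were Nup93, a nuclear pore protein, at 0.007, Colec11, a collectin, at 0.008 and Gypc, glycophorin C, at 0.012. Colec11 was one of the stellate identity genes listed below and had signals of 2541, 2437, 4333 and 5767. Closest to Lrat were Clec1b, a C-type lectin receptor, at 0.010, Casp1, the inflammatory caspase, at 0.013 and Arpin, an inhibitor of the Arp2/3 complex, at 0.019. With 4 arrays a profile has few ways to differ, and many genes lie near any rising one.

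Other genes of the same cells were read from lists. Of 18 further genes of stellate cell identity, 16 had a value, and Gfap and Bmp10 were below background on every array. Between genotypes, 11 of the 16 were higher in LKO on chow (50.7% of all genes) and 13 on HFD (45.9%). With diet, 13 were higher in F/F (47.8%) and 14 in LKO (43.5%). The medians were 0.11, 0.22, 0.23 and 0.40. Ngfr, the low-affinity nerve growth factor receptor, differed most with diet in LKO (1.62), but was lower in LKO on chow (-0.64). Adamtsl2, a secreted matrix protein, had signals of 61.3, 71.8, 80.8 and 181 and was higher by 0.997 in LKO on HFD. Hhip, an inhibitor of hedgehog ligands, went the other way, with 113, 93.2, 88.2 and 55.0 and a difference of -0.85 in LKO on HFD.

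Of 25 further genes of activation and matrix, 18 of the 22 with a value were higher with diet in F/F and 20 of 23 in LKO (47.8% and 43.5% of all genes). Vcan (versican, a matrix proteoglycan; -0.31 and -0.56) and Fn1 (fibronectin; -0.28 and -0.47) were lower in both. A difference of at least 2-fold with HFD was seen in 9 of the 22 in F/F (8.15% of all genes) and in 11 of 23 in LKO (12.2%), and none of these was lower. The medians were 0.80 and 0.99 (0.42 and 0.56 after normexp), against 0.14 and 0.23 for genotype on chow and on HFD. Fibrillar collagens had some of the largest values. Col1a1 had signals of 49.1, 72.9, 395 and 603 and was higher by 2.76 with diet in F/F and 2.58 in LKO. Col3a1, at 201, 275, 1383 and 1863, was higher by 2.54 and 2.29, and Col1a2 by 1.92 and 1.82. Between genotypes on HFD these collagens differed by 0.26 to 0.44, within the range of the markers. Lum (lumican, which organises collagen fibrils) was higher by 0.65 in LKO on HFD and by 1.13 with diet in LKO, and Fbn1 (fibrillin) by 0.44 and 1.69.

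The ligands of the PDGF receptors were also higher on LKO HFD. Pdgfa had signals of 590, 654, 1192 and 1736, with diet differences of 0.77 and 0.94. Pdgfc, at 193, 167, 224 and 474, resembled Pdgfra in that LKO HFD alone stood out, by 0.91 over F/F HFD and 1.04 over LKO chow. Pdgfb, at 50.3 to 123, was higher in all 4 comparisons by 0.37 to 0.51. Pdgfd had a value in 1 comparison only, a bound of 0.07 between genotypes on HFD.

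Of 11 genes of collagen cross-linking and modification other than Lox, 9 of the 10 with a value were higher in LKO on HFD, with a median of 0.37. On chow 4 of 9 were higher. Of all genes, 45.9% were higher in LKO on HFD and 50.7% on chow. With diet in F/F, 5 of 10 were higher and 5 lower (47.8% of all genes higher). Their median was -0.03, or 0.10 in the deposited table. With diet in LKO, 8 of 10 were higher (43.5% of all genes), with a median of 0.50. The lysyl oxidase relatives Loxl1 and Loxl2 differed most with diet, from 23.8 and 28.6 on chow to 71.8 and 103 on HFD for Loxl1 and from 66.0 and 67.3 to 223 and 312 for Loxl2. In LKO these were diet differences of 1.38 and 1.74. Tgm2, a transglutaminase, had signals of 3582, 4095, 6237 and 12121 and was higher by 0.79 in LKO on HFD. P4ha1, a collagen prolyl hydroxylase subunit, was higher by 0.64, and Loxl4 by 0.53 at signals where the spread was 0.38.

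Of the 13 retinoid handling genes, 10 were lower and 3 higher in LKO on HFD (median -0.30), where 45.9% of all genes were higher. With diet in F/F, 8 were lower and 5 higher (47.8% of all genes higher). In LKO 9 were lower and 4 higher with diet (43.5%). The diet counts were not far from these shares. The diet median in F/F, -0.12, was 0.05 after quantile normalization and 0.01 in the deposited table. Lrat was higher in each of these comparisons, and a relation to it was not tested. The retinoic acid hydroxylase Cyp26a1 had signals of 528, 322, 105 and 64.5, with diet differences of -2.58 in F/F and -2.79 in LKO. Cyp26b1 was lower with diet too (-0.96 and -1.06), but higher in LKO on both diets (0.64 and 0.54). Rarb, a retinoic acid receptor, was higher with diet by 0.94 and 1.16 and gave 108, 113, 245 and 349. Aldh1a1, which makes retinoic acid and is abundant in hepatocytes, was lower in LKO on HFD (-0.39).

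**Figure D4:**
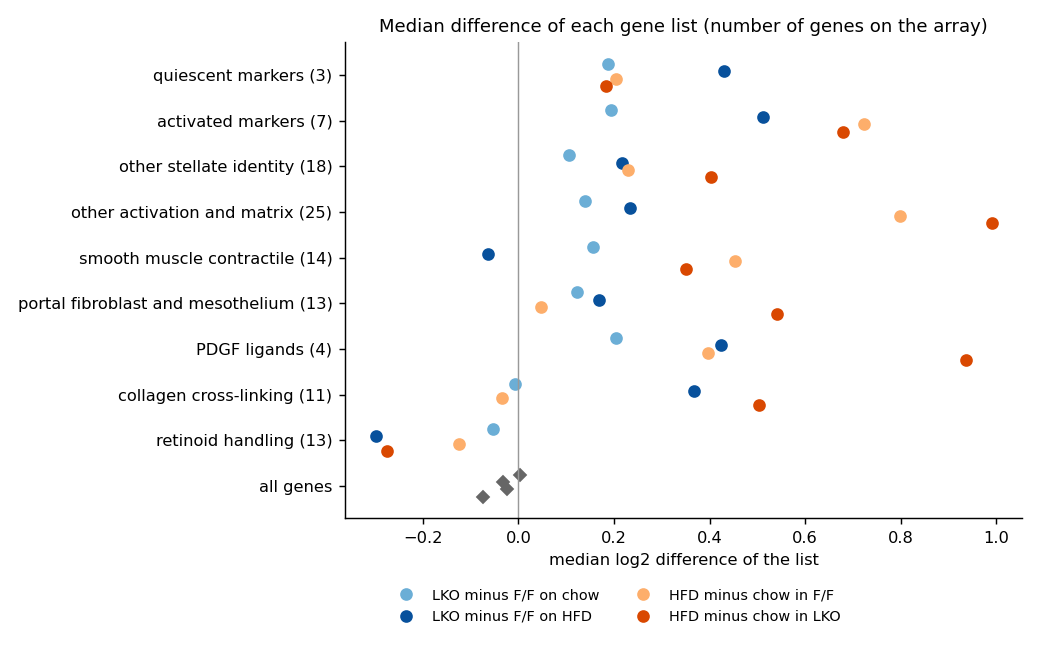
Median log2 difference of each gene list in the 4 comparisons (horizontal axis), with the number of genes on the array in brackets; quiescent and activated markers are the 10 genes described first and grey diamonds are the median of all genes. Of the lists drawn, activation and matrix genes have the largest diet medians (0.80 and 0.99), and retinoid handling genes lie left of 0 (with diet in F/F at 0.05 after quantile normalization and 0.01 in the deposited table).

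Genes of smooth muscle served to set Acta2 and Tagln beside vessel wall. On HFD, 4 of the 11 with a value were higher in LKO (45.9% of all genes) and 7 were lower, with a median of -0.06. Averaging all probes of a gene turned this median to 0.05. All 7 activated markers were higher in this comparison. On chow, 8 of 11 smooth muscle genes were higher in LKO (50.7% of all genes), with a median of 0.16, and Tagln was higher too. The part of vessel wall in Acta2 and Tagln was not tested. Myl9, a myosin light chain, differed with diet (394, 444, 980 and 985) and was lower in LKO on HFD (-0.16). Tpm2, a tropomyosin, was lower in LKO on HFD (-1.34), as was Tpm1 (-0.49), whereas the small muscle protein gene Mustn1 was higher by 0.89. Lmod1, Myocd and Pln were below background on all arrays. With diet the smooth muscle list was higher (medians 0.45 and 0.35), in 9 of 11 genes in F/F (47.8% of all genes) and 7 of 11 in LKO (43.5%). In portal fibroblast and mesothelial genes, 7 of 13 were higher in LKO on HFD, near the 45.9% of all genes. Entpd2, an ectonucleotidase of portal fibroblasts, gave 250, 283, 505 and 980, and Cd34 185, 215, 357 and 685.

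Markers of other liver cells also differed between these arrays. Of all genes, 45.9% were higher in LKO on HFD, 47.8% with diet in F/F and 43.5% with diet in LKO. Hepatocyte markers were lower on HFD in 10 of 10 genes in both genotypes (medians -0.34 and -0.55, or -0.071 and -0.090 after quantile normalization) and in 8 of 10 in LKO on HFD (-0.16, or 0.01 after quantile normalization). Endothelial markers were higher with diet in 9 of 10 genes in either genotype (0.52 and 0.44) and in 7 of 10 in LKO on HFD (0.10). Macrophage markers were higher in 9 of 12 genes in LKO on HFD (0.36) and with diet in LKO (0.85). Cd68 was higher by 0.84 and Cd5l by 0.68 in LKO on HFD, while among markers of resident macrophages Marco (-1.64) and Timd4 (-0.95) were lower and Clec4f (0.31) and Vsig4 (0.69) higher. Cholangiocyte markers were higher in 5 of 6 (0.46) and lymphocyte markers in 6 of 7 (0.76) in LKO on HFD, with medians of 0.065 and 0.13 after normexp, and of 0.37 for lymphocytes when all probes were averaged.

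Exocrine pancreas genes, which liver hardly makes, were all well above background on all 4 arrays. They were lower in LKO on chow in 12 of 12 (-0.90) and higher in LKO on HFD in 12 of 12 (1.82), and Amy2a5, an amylase, gave 2771, 1788, 1553 and 7177. The red blood cell list was lower in LKO on HFD in 4 of 4 measured genes (-0.95). Cfd, or adipsin, of the adipocyte list differed by -3.90 there, whereas Adipoq of the same list was higher (0.63) and Lep lower (-0.32). Between genotypes on chow the pancreas genes and the 9 measured markers went in opposite directions. With diet in F/F the pancreas genes were lower in 12 of 12 (-0.74), and the markers were higher in 8 of 9. With diet in LKO the pancreas genes were higher in 12 of 12 (2.05). There and in LKO on HFD all 10 markers were higher too, in the same direction as the pancreas genes. The part of other cell types and of carried-over tissue in the differences of the stellate cell markers was not tested.

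**Figure D5:**
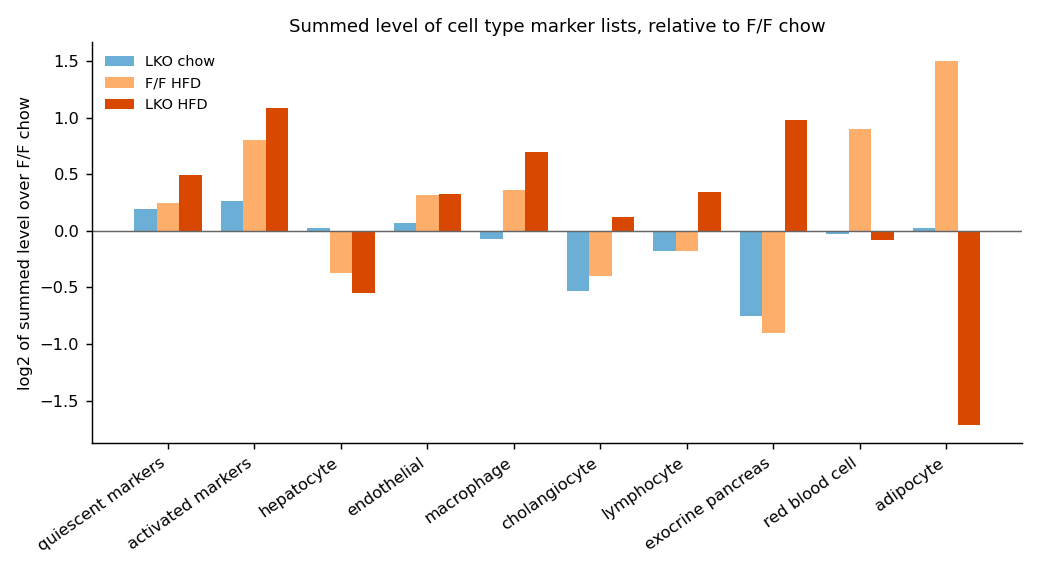
Summed level of each marker list, as log2 of its ratio to F/F chow, for the other 3 arrays (1 per condition, no error bars). Summed over the genes of a list is the signal of the brightest probe, divided by the 75th percentile of the array. The activated markers and the macrophage list are above F/F chow on both HFD arrays, the exocrine pancreas list on LKO HFD alone, and the red blood cell and adipocyte lists are highest on F/F HFD. The adipocyte sum is carried by Cfd (signals of 1246, 1272, 5005 and 377), while 3 of the 4 genes of that list were lower with diet in F/F.

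Summed over genes, each by its brightest probe, the 3 quiescent markers were 1.15, 1.19 and 1.41 times their F/F chow level on the other 3 arrays. The 7 activated markers were 1.20, 1.74 and 2.12 times theirs, in the sequence used above. The macrophage list came to 0.95, 1.28 and 1.62 times and the hepatocyte list to 1.02, 0.77 and 0.69 times. The endothelial list was at 1.25 times on both HFD arrays, and the exocrine pancreas list at 0.59, 0.53 and 1.97 times. Each sum is weighted to its brightest probes, Reln among the quiescent and Acta2, Tagln and Vim among the activated markers.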

How the data were processed

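Total RNA of mouse liver was labelled with Cy3 and hybridised to 4 one-colour Agilent arrays, 1 per condition, on 1 slide in 1 scan. Genotype and diet were taken from the sample labels. The authors deposited each spot's intensity as Agilent Feature Extraction 12.0.3.1 gave it (processed signal), with flags for outliers and for signals well above background, and a table of values equal to that signal times 1 factor per array (2.10 to 2.63). How the factors were made is not given in the sources used here. The labels and the paper name different RNA kits.

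The log2 75th percentile over non-control spots was subtracted from the log2 deposited intensity of each array (Python 3.11.15, pandas 2.3.3, numpy 2.4.6). Outlier spots, 76 to 132 per array, were left out. Accessions were matched to symbols through RefSeq (GRCm38.p6), for 33767 of 56605 probes. The brightest probe by its mean stood for a gene. Genes below background on 1 array have a bound, on both no value. No test was made. In the list counts a bound counts as higher or lower. Genes named were the 10 markers, Mboat7, genes from the up to 3 of each list that differed most in LKO on HFD and with diet in LKO, and the 3 closest in profile to Lrat and Acta2. Some other list genes (Pdgfd, Clec4f, Vsig4, Vcan, Fn1 and genes below background) were named after their values were seen. Some list genes are counted but not reported here by name. The markers and lists were chosen with earlier results of these data known, and the signal classes of the spread after the data were seen. The steps were tested on simulated data with 200 changed genes, all recovered. Alternatives were normexp background correction (limma 3.58.1 under R 4.3.3, offset 50), the 75th percentile over other sets of probes, quantile normalization and the deposited table. Further ones were other filters, the mean of all probes and thresholds of 1.5-fold and 4-fold. Figures were drawn with matplotlib 3.10.9.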

Additional observations from a re-analysis of the deposited data

Results flagged for a closer look

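Hand2 differed with diet in opposite directions in the 2 genotypes, by -0.33 (log2, HFD minus chow) in F/F and by 0.12 in LKO. The difference between them was not tested, and each value is within the technical spread of 0.38 for signals under 50. With normexp background correction the LKO value was -0.14.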

How the results depend on the processing

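No paired analysis was possible because no replicate numbers are shared between the conditions, which have 1 array each. Of 298 values of single markers under the alternatives, 294 kept their sign. The exceptions were Acta2 between genotypes on chow (-0.03 with normexp and with the deposited table), Pdgfra in LKO on HFD (-0.10 with the mean of all probes, 2 of which are dim) and Hand2 with diet in LKO. The number of markers at least 2-fold apart was, on chow between genotypes, 1 with no filter and no floor, and on HFD 1 at a 1.5-fold threshold. With diet in F/F it was 2 with the percentile over probes well above background, 3 with the deposited table, 2 with no filter and no floor, 4 at 1.5-fold and 0 at 4-fold. With diet in LKO it was 1 with normexp, 6 at 1.5-fold and 0 at 4-fold. The activated minus quiescent median on chow between genotypes was 0.12 with no filter and no floor, 0.20 with the mean of all probes, 0.12 with Acta2, Tagln, Vim and Lox alone and -0.04 with normexp. On HFD between genotypes it was -0.12 with the mean of all probes and -0.059 with those 4 alone. With diet in F/F it was 0.38 with normexp, 0.71 with no filter and no floor and 0.71 with those 4 alone, and with diet in LKO 0.38 with the mean of all probes. The deposited table shifted the median of all genes by 0.14 and 0.15 with diet in F/F and LKO, and no filter and no floor by -0.14 in LKO. Of 544 list medians, 523 kept their sign. Signals under 50 (Hand2, Des, Lox) limit what can be said of those markers, and the number of arrays limits all. The cause of these changes was not tested.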
